A study of Rattus norvegicus with 4 samples.

Results

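The solute carriers of families 1 to 12 are membrane proteins that move amino acids, sugars, neurotransmitters, bicarbonate, protons and other ions across cell membranes. They were followed here by their mRNA in rat brain tissue after intracerebral hemorrhage, a bleeding into the brain. Genes were taken from the deposited table of expression values by symbol, as every entry named Slc, a family number from 1 to 12, the letter a and a number. Slc1a2, Slc1a3, Slc2a1, Slc7a11, Slc11a1 and Slc11a2 were left out by the rule, which removes family 11 altogether. This gave 99 of 17853 table entries, with no symbol used more than once. Of the 99, 4 are not carriers but share the naming, namely the scaffold adaptors Slc9a3r1 and Slc9a3r2 and the neighbouring or interacting genes Slc7a6os and Slc4a1ap.

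Polyadenylated RNA was sequenced in 4 groups with 1 library each. These were tissue of the bleeding side (ipsilateral) and of the opposite side (contralateral) of rats 13 months old, and the same sides of rats 21 months old. All 4 groups came from rats with a hemorrhage, so the contralateral tissue is the other side of an injured brain and not tissue of an uninjured animal. RNA was pooled from 9 brains per the labels' protocols, which do not say if that was per library. Strain, sex, hemorrhage model, time after the hemorrhage and brain region are not given in the labels. Pooling leaves no measure of the spread between animals. The p-values below do not measure it and rest only on differences among these 4 libraries.

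Values are RPKM, read numbers scaled to gene length and to the mapped reads of the library, as the authors deposited them. Scaling to length lets levels of different genes be set side by side. Read counts were not given and the depth of the libraries is unknown. RPKM summed to between 388632 and 402100 per library, of which the carrier set took 0.157% to 0.177%. Genes of the mitochondrial genome made up 18.5% ipsilaterally and 23.3% contralaterally at 13 months, and 20.6% ipsilaterally and 24.1% contralaterally at 21 months. Brain tissue was recognisable in every library. Of 8 neuronal marker genes all 8 averaged 1 RPKM or more, and their summed level was 1048 and 1254 RPKM in the ipsilateral libraries, against 1463 and 1381 RPKM in the contralateral ones. For 7 astrocyte markers the sums were 600.3 and 689.9 RPKM ipsilaterally and 787 and 683 RPKM contralaterally. For 6 macrophage and monocyte markers they were 1592 and 1002 RPKM ipsilaterally and 57.6 and 30.1 RPKM contralaterally. In bulk tissue, fewer cells of a type and less RNA per cell cannot be told apart.

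Many, but not all, carriers of these families use the sodium gradient, the proton gradient or the exchange of another solute to move their cargo. In brain, family 6 takes up GABA, glycine, monoamines and amino acids released by neurons, and family 12 sets the chloride level of neurons, on which the inhibitory action of GABA depends. Carriers of family 7 work as light chains bound to a heavy chain of family 3, or alone as carriers of cationic amino acids such as arginine. Glucose and fructose pass through family 2, bicarbonate through family 4, calcium and protons in exchange for sodium through families 8 and 9.

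The first question was how strongly each carrier was expressed. Of the 99 genes 68 averaged 1 RPKM or more across their 4 values and 31 did not. Of those 31 genes 22 stayed under 0.2 RPKM in every library, and 30 stayed under 1 RPKM in every library. The exception was the urate and hexose carrier gene Slc2a9, with 1.20 RPKM at 13 months and 0.83 RPKM at 21 months ipsilaterally, against 0.34 and 0.27 RPKM contralaterally. Among the lowest were carriers known from kidney, gut or liver, such as the sodium-glucose carrier Slc5a1 (at most 0.04 RPKM), the glucose carrier Slc2a2 (at most 0.03 RPKM) and the kidney chloride cotransporter Slc12a1 (at most 0.04 RPKM). The noradrenaline carrier Slc6a2 was listed at no more than 0.02 RPKM, and the anion exchanger of red blood cells, Slc4a1, at no more than 0.12 RPKM. In 14 genes at least 1 library was listed at 0, and in 0 genes all 4 were.

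Among the highest mean levels were those of Slc4a1ap (48.7 RPKM), Slc3a2 (45.0 RPKM), the amino acid carrier Slc6a17 of synaptic vesicles (34.6 RPKM), Slc12a5 (30.7 RPKM), Slc8a2 (30.5 RPKM), Slc9a3r1 (27.9 RPKM), the neuronal glucose carrier Slc2a3 (26.3 RPKM), Slc7a6os (24.9 RPKM) and Slc12a2 (24.6 RPKM). Neighbours in this order were not always resolved. Slc12a5 ranged from 23.2 to 34.0 RPKM and Slc8a2 from 24.9 to 34.8 RPKM around nearly equal means.

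**Figure D1:**
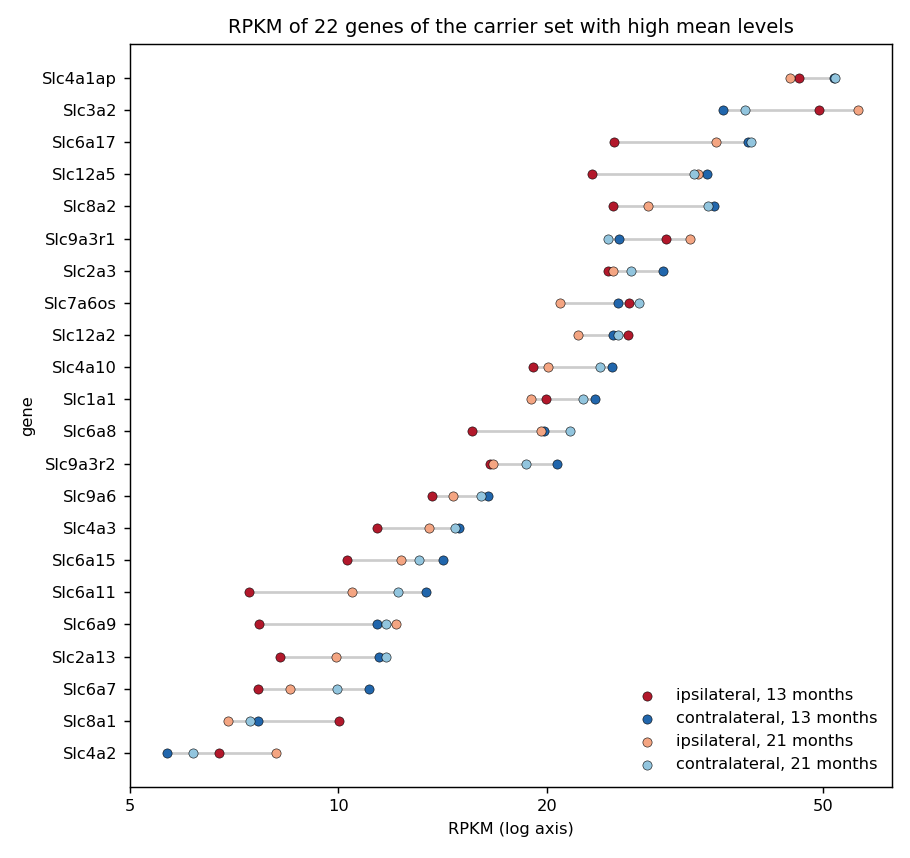
RPKM, on a log axis, of 22 genes of the set with high mean levels, each point being 1 of the 4 libraries and each grey line the range of a gene. The 13 month ipsilateral library is the lowest point for Slc6a17, Slc12a5 and Slc6a11, whereas Slc3a2 is higher in both ipsilateral libraries than in either contralateral one.

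The main comparison asked which carriers differed between the bleeding and the opposite side. Differences are given as log2 ratios after adding 1 RPKM to each value, which understates the change of low genes. They were counted from 1.5-fold and from 2-fold among genes that averaged 1 RPKM or more. At 13 months 7 of 68 carrier genes were at least 1.5-fold higher ipsilaterally, where 12.9% of all 12160 genes were, and 5 were as much lower, where 1.74% of all genes were. Lower were Slc10a4, Slc6a11, Slc6a17, Slc6a3 and Slc9a4. With the mitochondrial genes left out of the scaling the split was 7 higher and 8 lower. At 21 months 9 of 68 were at least 1.5-fold higher, against 13.0% of all genes, and 0 were as much lower, against 1.79%. That split was 7 and 1 when the libraries were scaled by their median ratio, and also 7 and 1 without the mitochondrial genes, the lower gene being Slc8a3. At least 2-fold higher were Slc7a7 and Slc7a2 at 13 months, where 7.19% of all genes were, and Slc7a7 and Slc2a5 at 21 months, where 5.61% were. At least 2-fold lower were 0 at either age, against 0.0658% of all genes at 13 months and 0.288% at 21 months. At least 1.5-fold higher at both ages were 7 of 68, against 9.03% of all genes, and as much lower at both were 0, against 0.0905%. By any amount, 18 of 68 were higher at both ages, against 38.4% of all genes, and 27 were lower at both, against 26.5%. The comparisons at both ages count the same 4 libraries and are not independent of the ratios given before. The shares on the high side, 10.3% and 13.2%, are near those of all genes. The median side ratio over the 68 genes was -0.15 at 13 months and -0.05 at 21 months, against 0.01 and 0.09 over all genes.

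A fit over both ages with limma, with side and an additive age term, gave a test across all 12160 genes. It called 10 of 68 carrier genes that rose ipsilaterally, against 13.3% of all genes, and 1 that fell, against 0.814%. Those that rose were Slc7a7, Slc2a5, Slc7a2, Slc10a6, Slc12a7, Slc1a5, Slc6a6, Slc9a9, Slc12a9 and Slc7a6, and Slc10a4 fell. The 10 genes amount to 14.7% of the set, close to the share of all genes. Of them 5, namely Slc7a7, Slc7a2, Slc10a6, Slc12a7 and Slc1a5, had a contralateral mean under 1 RPKM and passed the filter on low values through the ipsilateral libraries. The fit has 1 residual degree of freedom, which is the difference of the side ratios between the ages and not a spread between replicates. It leans on a spread shared by all genes, weighted as 19.5 degrees of freedom. The standard errors below are therefore mostly that shared spread and not a replicate error of the single gene. Without a filter on low values limma called no gene of the whole table, 0 up and 0 down; of the carriers 17 were up and 6 down at an unadjusted p under 0.05. With 1 library left out and side as the only term, the lone library of a side is assumed to vary like the pair. Then 11 carrier genes rose and 1 fell without the 13 month ipsilateral library, and 12 rose and 10 fell without the 21 month ipsilateral one. Without either contralateral library 1 rose and 0 fell, and among all genes 632 rose and 2 fell without the 13 month one and 625 rose and 3 fell without the 21 month one. Slc7a7 was the 1 carrier gene called in all 4 of these fits.

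**Figure D2:**
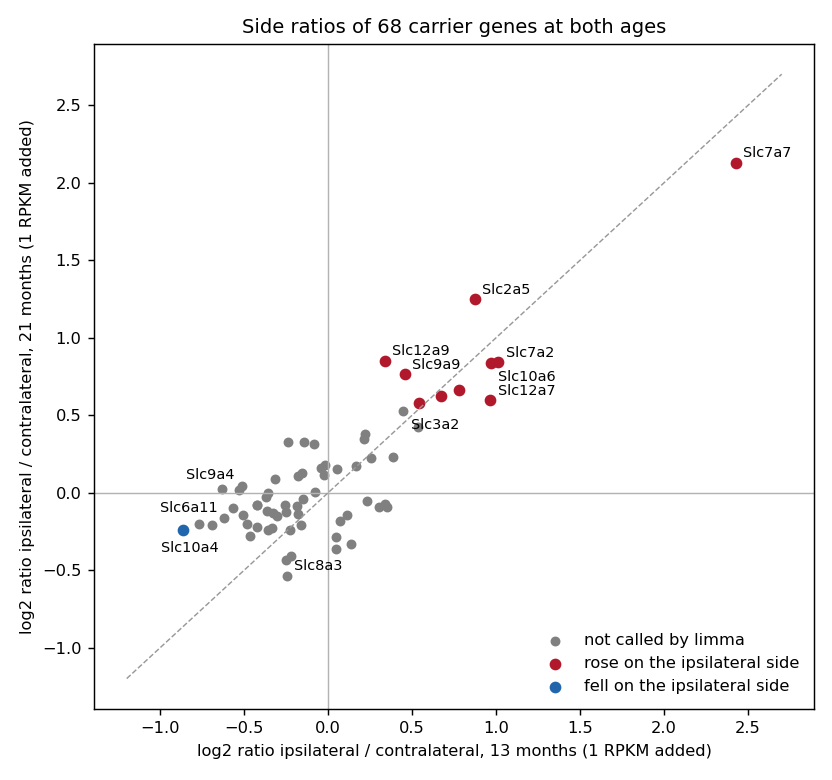
Side ratio (ipsilateral over contralateral, log2, 1 RPKM added to each value) at 13 months (x axis) and at 21 months (y axis), each point being 1 of 68 carrier genes; colours mark the calls of limma over both ages and the dashed line marks equal ratios. Slc7a7 lies far to the upper right at 2.43 and 2.13, and Slc10a4 at -0.87 and -0.24.

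Carriers of amino acids held the largest rise. Slc7a7 (ENSRNOG00000010296, chromosome 15), a light chain that exchanges cationic for neutral amino acids and is known from macrophages and epithelia, had 8.35 RPKM at 13 months and 5.87 RPKM at 21 months ipsilaterally, against 0.74 and 0.57 RPKM contralaterally. Both ipsilateral libraries were far above both contralateral ones, 11.3-fold and 10.3-fold without the added RPKM. It rose by 2.28 ± 0.17 on the log2 scale (SE, n = 2 libraries per side; adjusted p = 1.73e-09 in limma). Slc7a2 (ENSRNOG00000011016, chromosome 16), a carrier of arginine and other cationic amino acids known from activated macrophages in mice, had 2.23 and 1.87 RPKM ipsilaterally, against 0.60 RPKM in each contralateral library. The sides did not overlap, and the gene rose by 0.93 ± 0.17 (SE, adjusted p = 0.000331 in limma). Slc7a6 (ENSRNOG00000019943, chromosome 19), a relative of Slc7a7 with the same kind of exchange, had 5.87 and 5.22 RPKM ipsilaterally, against 3.73 and 3.17 RPKM contralaterally. It rose by 0.56 ± 0.17 (SE, adjusted p = 0.0274 in limma), a call that was lost when mitochondrial genes were left out of the scaling or the age term was dropped. The gene Slc7a6os lies on its opposite strand and whether the authors' counting used strand is not given in the sources used here. Slc7a6os itself had side ratios of 0.05 and -0.36.

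The heavy chain Slc3a2 (ENSRNOG00000018487, chromosome 1), the partner of these light chains at the cell surface, had 49.3 and 56.2 RPKM ipsilaterally, against 35.9 and 38.6 RPKM contralaterally. Both ipsilateral libraries lay above both contralateral ones, but the fitted change of 0.49 ± 0.17 (SE, adjusted p = 0.0604 in limma) did not pass. Among the other light chains Slc7a8, a carrier of neutral amino acids, had side ratios of 0.39 and 0.23. Slc7a5, the carrier of large neutral amino acids at the blood-brain barrier, had -0.14 and 0.33, and Slc7a10, a carrier of serine and glycine in astrocytes, had -0.37 and -0.03. None of these 3 passed. Slc7a1, the constitutive arginine carrier, had 2.87 and 2.90 RPKM ipsilaterally, against 3.39 and 2.62 RPKM contralaterally, so that the sides overlapped. The other cationic carriers Slc7a3, Slc7a4 and Slc7a14 were within 0.19 of 0 at both ages and did not pass. Of the genes that averaged 1 RPKM or more, 1 of 5 cationic carriers and 2 of 5 light chains rose, against 13.3% of all genes, and 0 of either fell, against 0.814%.

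In family 1, Slc1a5 (ENSRNOG00000015948, chromosome 1), a carrier of glutamine and other neutral amino acids, had 1.85 and 1.39 RPKM ipsilaterally, against 0.66 and 0.51 RPKM contralaterally. It rose by 0.72 ± 0.17 (SE, adjusted p = 0.00403 in limma), with no overlap of the sides. Its relative Slc1a4, which carries alanine, serine and cysteine, had 5.63 and 7.26 RPKM ipsilaterally, against 6.02 and 5.66 RPKM contralaterally. There the order of the sides differed between the ages. The neuronal glutamate carrier Slc1a1 was lower in both ipsilateral libraries, with 19.9 and 19.0 RPKM against 23.4 and 22.6 RPKM, and Slc1a6, a glutamate carrier known from cerebellar Purkinje cells, had 1.21 and 1.50 RPKM against 1.96 and 1.64 RPKM. Neither passed in limma.

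Slc6a6 (ENSRNOG00000009019, chromosome 4), the carrier of taurine, an amino acid that brain cells release and take up as an osmolyte, had 7.78 and 6.56 RPKM ipsilaterally, against 4.52 and 3.91 RPKM contralaterally. It rose by 0.65 ± 0.17 (SE, adjusted p = 0.00969 in limma) and was the 1 gene of family 6 that passed. It was the only gene of the set called when only genes averaging 5 RPKM or more were fitted. The other genes that rose averaged less and did not enter that fit, so it does not set Slc6a6 apart from them. The creatine carrier Slc6a8 lay the other way, at 15.6 and 19.6 RPKM ipsilaterally and 19.8 and 21.6 RPKM contralaterally, and did not pass.

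Among hexose carriers, Slc2a5 (ENSRNOG00000017693, chromosome 5), the fructose carrier that in brain is known from microglia, had 3.87 and 6.50 RPKM ipsilaterally, against 1.66 and 2.16 RPKM contralaterally. Both sides were higher at the older age, and the sides did not overlap. It rose by 1.06 ± 0.17 (SE, adjusted p = 9.39e-05 in limma). The neuronal glucose carrier Slc2a3 had 24.5 and 24.9 RPKM ipsilaterally, against 29.4 and 26.4 RPKM contralaterally. The proton-coupled inositol carrier Slc2a13 had 8.25 and 9.92 RPKM against 11.4 and 11.7 RPKM. Neither of these passed, nor did Slc2a8 and Slc2a12, while the insulin-responsive Slc2a4 stayed at or under 0.40 RPKM.

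Further genes that rose came from families 9, 10 and 12. Slc9a9 (ENSRNOG00000008554, chromosome 8), a sodium-proton exchanger of endosomes, had 4.71 and 5.37 RPKM ipsilaterally, against 3.16 and 2.75 RPKM contralaterally, and rose by 0.61 ± 0.17 (SE, adjusted p = 0.0169 in limma). Slc10a6 (ENSRNOG00000002057, chromosome 14), a sodium-coupled carrier of sulfated steroids, had 1.99 and 1.72 RPKM against 0.53 and 0.52 RPKM and rose by 0.90 ± 0.17 (SE, adjusted p = 0.000432 in limma). Slc12a7 (ENSRNOG00000016372, chromosome 1), a potassium-chloride cotransporter known for volume regulation, had 2.79 and 1.95 RPKM against 0.94 and 0.95 RPKM and rose by 0.78 ± 0.17 (SE, adjusted p = 0.00245 in limma). Slc10a7, a relative of Slc10a6, had 1.75 and 1.67 RPKM against 0.90 and 0.99 RPKM, with a fitted change of 0.48 ± 0.17 (SE, adjusted p = 0.0673 in limma) that did not pass. In each of these 4 genes both ipsilateral libraries were above both contralateral ones, as they were in 34.4% of all genes. The 4 genes were named for being higher ipsilaterally. Slc10a7, like Slc10a6 and Slc12a7, had a contralateral mean under 1 RPKM and passed the filter on low values through the ipsilateral libraries. Slc12a9 (ENSRNOG00000048487, chromosome 12), a member of family 12 without a settled cargo, had 3.31 and 4.39 RPKM ipsilaterally, against 2.41 and 1.99 RPKM contralaterally. It rose by 0.59 ± 0.18 (SE, adjusted p = 0.0257 in limma), with the wider gap at 21 months. The calls of Slc9a9 and Slc12a9 were lost when mitochondrial genes were left out of the scaling, and that of Slc12a9 also without the age term.

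Markers of phagocytes were higher on the same side as these 10 genes, which were picked for being higher there. All 6 macrophage and monocyte markers and 3 of 4 microglia markers with a value were at least 1.5-fold higher ipsilaterally at both ages. The summed microglia markers had 157.5 and 112.4 RPKM ipsilaterally, against 45.5 and 39.9 RPKM contralaterally, and no marker of either list had a mean under 0.1 RPKM. The ipsilateral sums of both lists were lower at 21 than at 13 months. In the microglia list nearly all of that difference was Aif1, with 92.06 RPKM at 13 months and 47.85 RPKM at 21 months. Csf1r (49.27 and 47.76 RPKM) and Cx3cr1 (10.12 and 10.03 RPKM) were nearly level, and Tmem119 (6.06 and 6.74 RPKM) was higher at 21 months. Of the 10 genes Slc2a5, Slc9a9 and Slc12a9 were higher ipsilaterally at 21 months and the rest lower. Neutrophil markers summed to 52.1 and 29.8 RPKM ipsilaterally, against 3.60 and 7.67 RPKM contralaterally. Only 2 of these 5 markers, S100a8 and S100a9, averaged 1 RPKM or more, and they made up nearly all of the sums. Mmp8 was also higher ipsilaterally at both ages, and Mpo was at or under 0.04 RPKM. Ngp went the other way, with 0.06 RPKM in each ipsilateral library, against 0.17 and 0.21 RPKM contralaterally. Markers of reactive astrocytes summed to 2473 and 2243 RPKM ipsilaterally, against 591 and 472 RPKM contralaterally. The part of these cell types in the rise of the carriers was not tested.

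**Figure D3:**
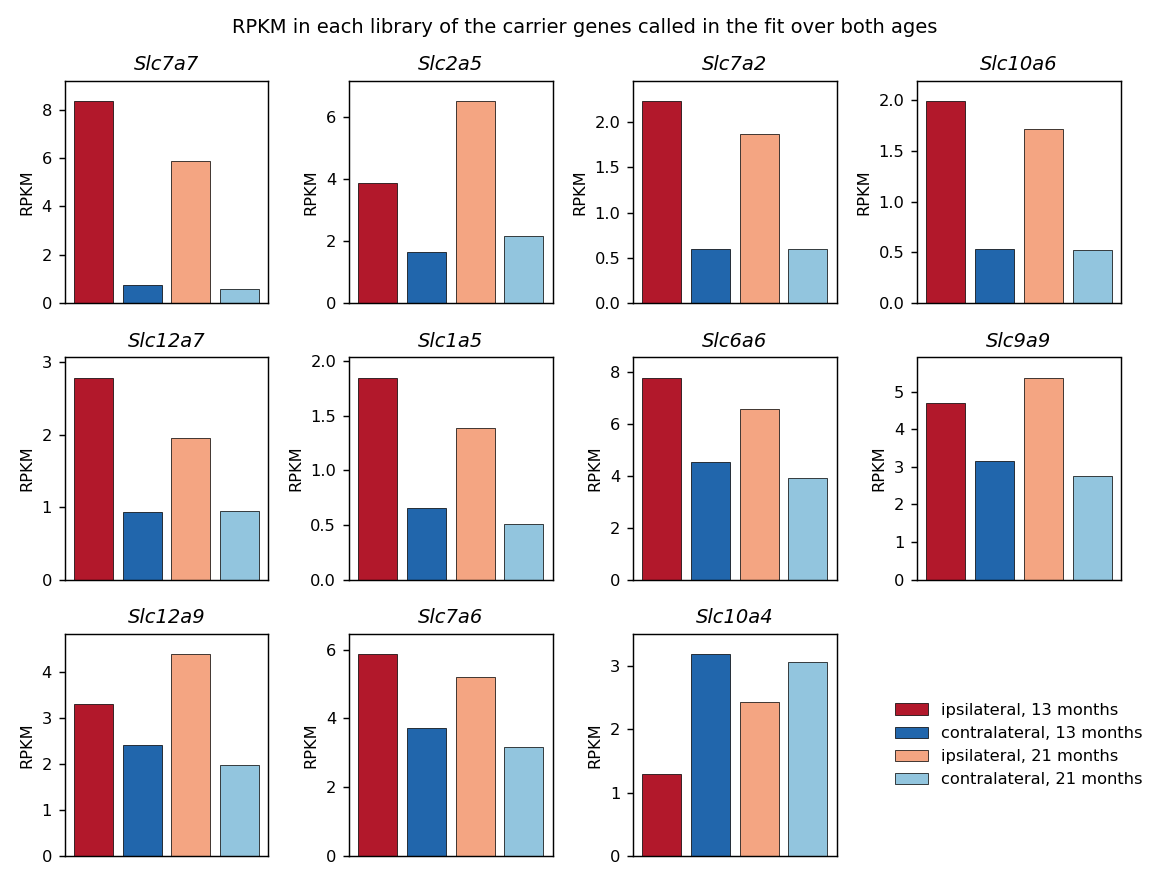
RPKM in each of the 4 libraries, with axes that start at 0, for the 10 carrier genes that rose and for Slc10a4, which fell, on the ipsilateral side in limma over both ages. Slc7a7 stands at 8.35 and 5.87 RPKM ipsilaterally, against 0.74 and 0.57 RPKM contralaterally, while Slc10a4 is lowest in the 13 month ipsilateral library.

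Promoter sequences were looked up for the 10 genes that rose, which share a direction between the sides because they were picked by it. The sequences are the 250 bases before the gene start in RefSeq (build GRCr8), and a gene can have further starts. Of the 10 genes 8 matched by symbol; Slc1a5 and Slc7a2 did not. Each was searched on both strands for TGATGNAA, the core of the amino acid response element, for ACGTG, the core of the hypoxia response element, and for TGACNNNGC, the core of the antioxidant response element. ACGTG was found in 4 of 8, those of Slc7a6, Slc10a6, Slc12a7 and Slc12a9, and in 16.9% of all 27457 promoters. TGACNNNGC was found in 2 of 8, those of Slc6a6 and Slc7a7, and in 10.2% of all. TGATGNAA was found in 1 of 8, that of Slc9a9, and in 3.27% of all. In 3 genes ACGTG lay on both strands and so formed the palindrome CACGTG, a motif picked out after the matches were seen, which 5.79% of all promoters hold. A match is a run of letters, not a site known to be bound. Of the 65 matched genes of the set that did not rise, 15 held ACGTG, 9 held CACGTG, 7 held TGACNNNGC and 2 held TGATGNAA. In all 73 of 99 genes matched, too few to speak for the whole set, and the motifs were not tested as particular to the genes that rose. The promoter of the gene that rose most and the 3 with the palindrome are shown 5′ to 3′ on the strand of the gene, with the matches in capitals.
Slc7a7 (GRCr8, chr15:31835684-31835933, minus strand): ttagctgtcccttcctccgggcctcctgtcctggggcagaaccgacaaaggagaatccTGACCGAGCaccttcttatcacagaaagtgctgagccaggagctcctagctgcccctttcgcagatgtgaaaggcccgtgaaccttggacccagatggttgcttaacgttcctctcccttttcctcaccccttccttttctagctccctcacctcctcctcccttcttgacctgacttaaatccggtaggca
Slc10a6 (GRCr8, chr14:6385325-6385574, plus strand): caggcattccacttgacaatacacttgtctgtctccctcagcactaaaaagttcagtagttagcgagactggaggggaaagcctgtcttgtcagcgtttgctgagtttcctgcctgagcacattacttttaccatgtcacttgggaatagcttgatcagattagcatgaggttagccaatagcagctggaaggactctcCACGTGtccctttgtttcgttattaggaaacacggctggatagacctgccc
Slc12a7 (GRCr8, chr1:31354626-31354875, minus strand): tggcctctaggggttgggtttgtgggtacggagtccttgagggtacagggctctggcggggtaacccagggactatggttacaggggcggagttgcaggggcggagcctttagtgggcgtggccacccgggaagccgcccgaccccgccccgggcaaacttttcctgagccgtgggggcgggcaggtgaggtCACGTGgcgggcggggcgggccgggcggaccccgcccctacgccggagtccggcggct
Slc12a9 (GRCr8, chr12:25005549-25005798, plus strand): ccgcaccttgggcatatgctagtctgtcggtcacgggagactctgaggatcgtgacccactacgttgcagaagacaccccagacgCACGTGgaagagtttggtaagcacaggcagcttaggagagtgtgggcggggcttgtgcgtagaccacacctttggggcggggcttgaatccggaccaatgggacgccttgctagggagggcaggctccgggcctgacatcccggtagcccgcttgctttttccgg

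On the low side stood several carriers of neurotransmitters, most of all at 13 months. Slc6a11 (ENSRNOG00000005697, chromosome 4), the GABA carrier of astrocytes, had 7.44 RPKM at 13 months and 10.5 RPKM at 21 months ipsilaterally, against 13.4 and 12.2 RPKM contralaterally. Its log2 ratios were -0.77 and -0.20, and its fitted change of -0.49 ± 0.18 (SE, adjusted p = 0.0837 in limma) did not pass, but it was called when the libraries were scaled by their median ratio. Slc6a13, a GABA and taurine carrier known from meninges and blood vessels, had 2.64 and 2.49 RPKM ipsilaterally and 2.37 and 2.86 RPKM contralaterally, an overlap of the sides.

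The glycine carrier Slc6a9 had 7.69 and 12.1 RPKM ipsilaterally, against 11.4 and 11.7 RPKM contralaterally, with log2 ratios of -0.51 and 0.04. Slc6a5, the glycine carrier of inhibitory terminals in brainstem and spinal cord, was listed at no more than 0.40 RPKM. Carriers of proline and other neutral amino acids in neurons were lower on the ipsilateral side too. Slc6a17 had 35.0 RPKM at 21 months ipsilaterally, against 39.0 and 39.3 RPKM contralaterally, and was lowest at 13 months ipsilaterally, with log2 ratios of -0.62 and -0.16. Slc6a15 had side ratios of -0.42 and -0.08, and the proline carrier Slc6a7 of -0.48 and -0.20. In all 3 both ipsilateral libraries were below both contralateral ones, as they were in 22.1% of all genes, and none passed in limma. Slc6a20, a proline carrier known from choroid plexus and meninges, had side ratios of 0.34 and -0.08. Of 11 genes of family 6 that averaged 1 RPKM or more, 7 were lower ipsilaterally at both ages, against 26.5% of all genes, and 1 was higher at both, against 38.4%.

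Slc6a3 (ENSRNOG00000017302, chromosome 1), the dopamine carrier of midbrain neurons, had 0.38 and 1.16 RPKM ipsilaterally, against 1.23 and 1.50 RPKM contralaterally. It passed the filter on low values through the contralateral libraries. Both ipsilateral libraries were lower, with log2 ratios of -0.69 and -0.21. Among the fits of all 4 libraries, the gene passed in limma only with 0.1 RPKM added in place of 1. Th, the rate-limiting enzyme of dopamine synthesis and picked out after its values were seen, had 1.27 and 3.57 RPKM ipsilaterally, against 3.63 and 4.77 RPKM contralaterally. Slc10a4 (ENSRNOG00000026091, chromosome 14), a vesicle protein of cholinergic and monoaminergic neurons, had 1.30 and 2.43 RPKM ipsilaterally, against 3.19 and 3.06 RPKM contralaterally. It fell, with a fitted change of -0.55 ± 0.18 (SE, adjusted p = 0.0455 in limma). That call was lost without mitochondrial genes in the scaling, without the age term, and in 3 of the 4 fits with a library left out, all but the one without the 21 month ipsilateral library. Slc5a7, the choline carrier of cholinergic terminals, had 1.46 and 1.40 RPKM ipsilaterally, against 1.93 and 2.24 RPKM contralaterally, and did not pass. Whether both sides held the same share of midbrain or basal forebrain tissue was not tested.

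Both main chloride carriers of neurons overlapped between the sides. Slc12a5 (ENSRNOG00000018111, chromosome 3), the neuronal potassium-chloride cotransporter that keeps chloride low, had 23.2 RPKM at 13 months and 33.0 RPKM at 21 months ipsilaterally, against 34.0 and 32.6 RPKM contralaterally. The log2 ratios were -0.53 and 0.02, so a lower value was seen at 13 months and none at 21 months. Slc12a2 (ENSRNOG00000015971, chromosome 18), the sodium-potassium-chloride cotransporter that brings chloride in, had 26.2 and 22.1 RPKM ipsilaterally, against 24.9 and 25.3 RPKM contralaterally, with ratios of 0.07 and -0.18. Neither passed in limma. Slc12a4, a potassium-chloride cotransporter of wide expression, had ratios of 0.25 and 0.22. In family 12, 2 of 6 genes that averaged 1 RPKM or more rose, against 13.3% of all genes, and 0 fell, against 0.814%.

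Sodium-calcium exchangers, which push calcium out of cells, were mostly lower. Slc8a2 had 24.9 and 28.0 RPKM ipsilaterally, against 34.8 and 34.2 RPKM contralaterally. Slc8a3 had 3.57 and 2.88 RPKM against 4.42 and 4.63 RPKM. Its log2 ratio at 21 months, -0.54, was the lowest among genes of the set that averaged 1 RPKM or more. Slc8a1, the exchanger of heart and brain, had 10.0 and 6.94 RPKM ipsilaterally, against 7.67 and 7.47 RPKM contralaterally, a reversal between the ages. Of the 3 genes 0 passed in limma.

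Among proton and bicarbonate carriers 1 gene passed. Over 8 sodium-proton exchangers the median log2 ratio was -0.20 at 13 months and 0.11 at 21 months, with Slc9a9 as the 1 that passed. The adaptor Slc9a3r1, which links membrane proteins to the cytoskeleton, had 29.7 and 32.1 RPKM against 25.4 and 24.5 RPKM, and Slc9a3r2 had 16.5 and 16.7 RPKM against 20.7 and 18.7 RPKM. The sides of these adaptors did not overlap, in opposite directions, and neither passed. For 8 bicarbonate carriers the medians were -0.14 and -0.13, and 0 passed. Slc4a10, a neuronal and choroid plexus carrier, had 19.1 and 20.1 RPKM ipsilaterally, against 24.8 and 23.9 RPKM contralaterally, and Slc4a4, the sodium bicarbonate cotransporter of astrocytes, had 4.60 and 4.37 RPKM against 6.07 and 5.29 RPKM. The anion exchanger Slc4a2 was higher ipsilaterally at both ages (0.21 and 0.35), and Slc4a3, an anion exchanger of neurons and heart, was lower at both (-0.37 and -0.12).

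**Figure D4:**
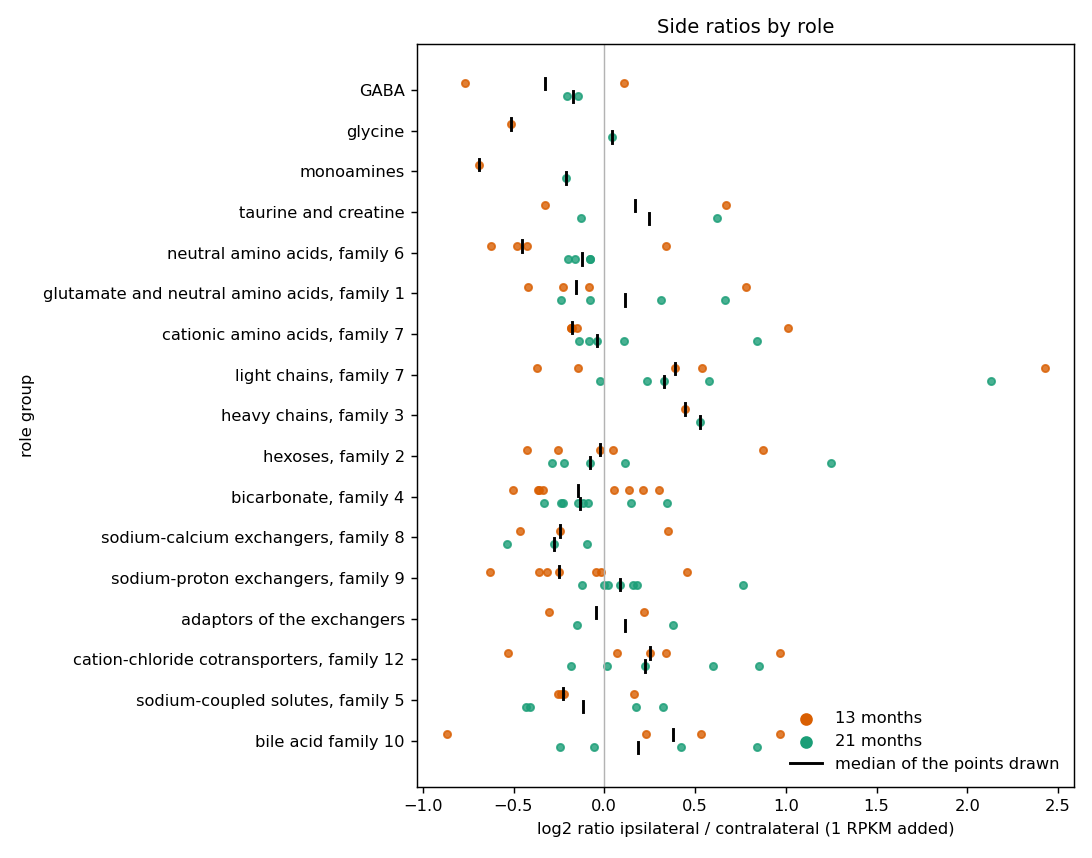
Side ratio (ipsilateral over contralateral, log2, 1 RPKM added to each value) of genes that averaged 1 RPKM or more, by role and by age; not every gene of the set is drawn, Slc4a1ap and Slc7a6os among those left out. Each point is 1 gene and each black bar the median of the points drawn in a group, which for glycine, monoamines and heavy chains is a single gene. Light chains of family 7 have medians of 0.39 at 13 months and 0.33 at 21 months.

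The lower values gathered in 1 library. The 13 month ipsilateral library was the lowest of the 4 for 32 of 68 carrier genes, where it was the lowest for 31.9% of all genes. The 21 month ipsilateral library was the lowest for 11 of 68, against 20.8% of all genes. The contralateral libraries were the lowest for 10 of 68 at 13 months, against 18.1% of all genes, and for 14 of 68 at 21 months, against 28.4%. Both ipsilateral libraries lay below both contralateral ones in 24 of 68 carrier genes, against 22.1% of all genes, and above them in 17 of 68, against 34.4% of all genes. The sums of neuronal and astrocyte markers given above were lowest in the 13 month ipsilateral library too. Of the neuronal markers, Map2 and Elavl4 were instead lowest in the 21 month ipsilateral library. The astrocyte sum was mostly Ndrg2, which, like Gjb6, Aldh1l1 and Fgfr3, was lowest in the 13 month ipsilateral library. Aqp4 was instead higher in both ipsilateral libraries. Gjb2 was lowest in the 21 month ipsilateral library and Slc39a12 in the 21 month contralateral one. Oligodendrocyte markers summed to 1869 and 2555 RPKM ipsilaterally, against 2257 and 2145 RPKM contralaterally. Macrophage and monocyte markers went the other way, with their highest sum in the 13 month ipsilateral library. Some lower carriers, among them Slc1a1 and Slc8a3, were instead lowest in the 21 month ipsilateral library. Inhibitory neuron markers summed to 82.9 and 98.9 RPKM ipsilaterally, against 112.9 and 111.9 RPKM contralaterally. The part of neurons, or of other cell types, in the lower carrier values was not tested.

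The ages were compared within each side to ask how old tissue differed from adult tissue. On the ipsilateral side 3 of 68 carrier genes were at least 1.5-fold higher at 21 months, where 3.99% of all genes were, and 0 were as much lower, where 4.2% were. The 3 genes were Slc6a3, Slc2a5 and Slc6a9, with log2 ratios of 0.65, 0.62 and 0.59. On the contralateral side 0 of 68 differed by as much, where 0.658% of all genes were higher and 0.387% lower. From 2-fold, 0 carrier genes differed with age on either side. Of all genes 0.321% were as much higher and 0.658% lower ipsilaterally, and 0.206% higher and 0.132% lower contralaterally. The median absolute log2 ratio over the 68 genes was 0.23 for the ipsilateral pair and 0.10 for the contralateral pair, against 0.21 and 0.09 over all genes. Contralaterally the highest ratio was that of the choroid plexus bicarbonate carrier Slc4a5 (0.48), with 3.01 RPKM at 21 months and 1.87 RPKM at 13 months, and the lowest that of Slc9a4 (-0.47), an exchanger known from stomach and brain. Of 6 choroid plexus markers 5 were also higher at 21 months contralaterally and Folr1 was lower. Their sum, nearly all of it Ttr, was 1801 RPKM at 21 months and 1225 RPKM at 13 months contralaterally. Ipsilaterally it was 1069 and 672 RPKM, where Slc4a5 had 2.18 RPKM at 21 months and 2.15 RPKM at 13 months. The part of the choroid plexus in the level of Slc4a5 was not tested. Ipsilaterally the lowest ratios were those of Slc6a20 (-0.50), Slc8a1 (-0.48) and Slc7a7 (-0.44). At the older age 18 of 68 genes were higher on both sides, against 20.7% of all genes, and 13 were lower on both, against 25.5%, among them Slc5a11, an inositol carrier, with ratios of 0.29 ipsilaterally and 0.28 contralaterally, and Slc6a6, with -0.22 and -0.17. With 1 pooled library per age and side, age cannot be told apart from differences between pools or dissections, and no test was made.

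**Figure D5:**
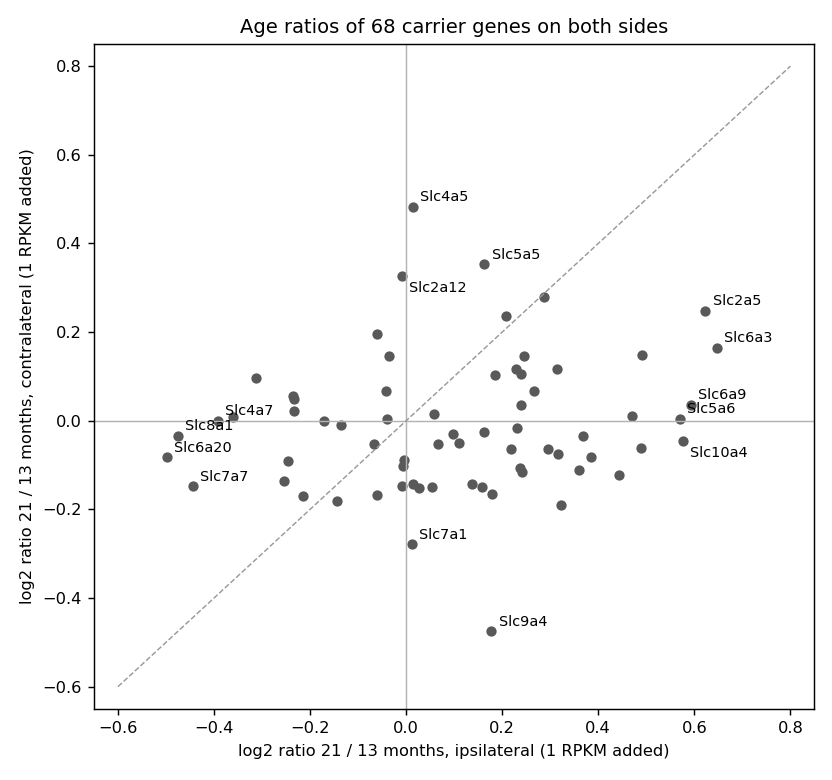
Log2 ratio of RPKM at 21 months to that at 13 months, after adding 1 RPKM, on the ipsilateral side (x axis) and on the contralateral side (y axis), each point being 1 of 68 carrier genes. Points spread more along the ipsilateral axis, from -0.50 for Slc6a20 to 0.65 for Slc6a3, than along the contralateral one, from -0.47 for Slc9a4 to 0.48 for Slc4a5.

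The side ratios of both ages were set against each other to ask whether the response differed with age. The ratio at 21 months minus that at 13 months was at least 1.5-fold higher for Slc9a4 (0.65) and Slc10a4 (0.62), 2 of 68 genes where 6.32% of all genes were, and as much lower for 0, where 4.83% were. A 2-fold difference was reached by 0 carrier genes, against 0.65% of all genes upward and 0.757% downward. Slc9a4 was also the 1 gene of the set with ratios of opposite sign and a difference of this size, which 7.29% of all genes showed, but its ratio at 21 months was 0.02 and turned to -0.04 with median-ratio scaling and -0.01 without mitochondrial genes, so that the opposite sign was lost. Next came Slc6a11, Slc5a6, a carrier of biotin and pantothenate, and Slc6a9, each at 0.56, and Slc12a5 at 0.55. The lowest differences were those of Slc4a5 (-0.47), Slc8a1 (-0.44) and Slc6a20 (-0.42). Slc7a7, Slc7a2 and Slc10a6 differed between ages by -0.30, -0.17 and -0.13. These differences rest on 4 single libraries and were not tested.

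Genes that work with these carriers were described as lists of their own. The sodium-potassium pump builds the sodium gradient that many of the carriers use. Of its 6 subunits 0 passed in limma, with median log2 side ratios of -0.39 at 13 months and 0.02 at 21 months. Of 5 kinases of the cation-chloride cotransporters that averaged 1 RPKM or more 0 passed. Of 8 genes of the carbonic anhydrase family, some of which make bicarbonate, 1 rose and 0 fell in limma. The gene that rose was Car4, with 13.4 and 16.1 RPKM ipsilaterally, against 9.59 and 9.78 RPKM contralaterally. The median log2 side ratio of the 8 genes was -0.51 at 13 months and 0.37 at 21 months. At 13 months 3 were at least 1.5-fold lower, against 1.74% of all genes, and 0 as much higher, against 12.9%. At 21 months 1 was higher, against 13.0%, and 0 lower, against 1.79%. Amino acid response genes passed in 0 of 9, and the glutamine carriers Slc38a1 and Slc38a3 in 0 of 2. Of the 6 carriers of these families left out by the rule 1 rose, the metal ion carrier Slc11a1 of phagocyte lysosomes, with 13.2 and 13.7 RPKM ipsilaterally, against 0.91 and 1.22 RPKM contralaterally.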

How the data were processed

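The authors deposited RPKM values rounded to 2 decimals for 17853 genes in 4 libraries, per the file headers. Tools named, with no version or role, in the submitters' processing notes are TopHat2, cutadapt and edgeR; the build named is GRCh38, a human one, although the gene identifiers are rat; the counting step and gene lengths are not stated in the labels, so chromosomes are those of the table. Columns were matched to samples by age and side code in the titles. Depth could not be recovered: among genes averaging under 0.1 RPKM the lowest quartile of values above 0 was 0.02 RPKM, close to the rounding step.

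The working scale was log2(RPKM + 1), over 12160 genes that averaged 1 RPKM or more. Single libraries were compared as ratios with no test. The model in limma 3.58.1 (R 4.3.3) held side and, additively, age, with eBayes and two-sided tests, with a Benjamini-Hochberg threshold of 0.05 over all genes. The script was tested on simulated data. Named genes were the extremes of each comparison and family, the highest levels, the limma calls and a set of well-known carriers; Th, Car4 and the Slc7a6os pair in the text were added beside them. Some genes of the set enter the counts but are not reported here by name. Members and lists were chosen with earlier results of these data known. Promoter sequences came from RefSeq (GRCr8). Alternatives were a pseudocount of 0.1, no filter, a filter at 5 RPKM, median-ratio scaling, scaling without mitochondrial genes, no age term, and, chosen after seeing the data, leaving out each library with side as the only term.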

Additional observations from a re-analysis of the deposited data

Results flagged for a closer look

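Slc9a4, a sodium-proton exchanger gene, had side ratios of opposite sign at the ages. At 13 months it had 0.91 RPKM ipsilaterally, against 1.96 RPKM contralaterally. At 21 months the ipsilateral value was 1.16 RPKM and the contralateral one 1.13 RPKM. The log2 ratio at 21 months, 0.02, turned to -0.04 with median-ratio scaling and to -0.01 without mitochondrial genes, so the opposite sign held on the deposited scale but not in those settings. The side ratio at 21 months minus that at 13 months was 0.65 on the log2 scale. Ratios of opposite sign with a difference of at least 1.5-fold were found in 7.29% of all genes. With 1 library per group the difference was not tested.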

How the results depend on the processing

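The counts of carrier genes moved most with the low-value choices. With 0.1 RPKM added in place of 1, at least 2-fold higher ipsilaterally were 6 genes at 13 months and 6 at 21 months. Past 1.5-fold in that setting, 3 were lower ipsilaterally at 21 months, 6 were higher and 2 lower at 21 than at 13 months ipsilaterally, 1 was higher and 1 lower contralaterally, and 8 and 2 differed in the side ratio between ages, while limma called 2 that fell. When only genes averaging 5 RPKM or more entered, 1 was higher and 2 lower past 1.5-fold at 13 months, 1 was higher at 21 months, 1 was higher with age ipsilaterally, 0 passed 2-fold at either age, 0 differed between ages, and limma called 1 up and 0 down. Unfiltered, limma called 0 up and 0 down, and 1 gene was lower past 1.5-fold at 21 months. Median-ratio scaling gave 1 lower at 21 months, 1 higher with age ipsilaterally, 1 that differed between ages and 2 that fell in limma. Without mitochondrial genes 8 were lower past 1.5-fold and 1 higher past 2-fold at 13 months, 1 was lower at 21 months, 5 were higher with age ipsilaterally, and 7 rose and 0 fell in limma. Without the age term 8 rose and 0 fell. The cause was not tested, beyond fewer genes being tested at 5 RPKM. All 10 genes that rose were also called with 0.1 RPKM added and with median-ratio scaling, and 7 of them without mitochondrial genes. No carrier gene past 1.5-fold changed sign in any of these settings. The age term already sets the sides of each age against each other, and the labels carry no replicate numbers for any other pairing. Leaving out 1 library was possible with side as the only term, an alternative chosen after seeing the data, and gave 1 to 12 carrier genes that rose and 0 to 10 that fell. Depth is unknown, so values near 0 are the least certain.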

Other observations

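The serotonin carrier Slc6a4 did not reach a mean of 1 RPKM. It was listed at 0 and 0.06 RPKM in the ipsilateral libraries, against 0.25 and 0.64 RPKM in the contralateral ones, 13 months first. Tph2, the enzyme of serotonin synthesis in neurons, had 0.30 and 0.47 RPKM ipsilaterally, against 0.88 and 2.46 RPKM contralaterally. The betaine and GABA carrier Slc6a12, likewise under the filter, had 0.51 and 0.27 RPKM ipsilaterally, against 0.16 and 0.09 RPKM contralaterally. All 3 genes were picked out after their values were seen. Tph2 passed the filter on low values only through the 21 month contralateral library. It fell in limma, with a fitted change of -0.88 ± 0.19 (SE, adjusted p = 0.00144), while Slc6a4 and Slc6a12 were not tested. Fev, another gene listed for serotonin neurons, had 0.13 and 0.03 RPKM ipsilaterally, against 0.04 and 0.12 RPKM contralaterally. Slc18a2, also on that list, had 0.33 and 0.79 RPKM against 0.72 and 0.85 RPKM. Neither was tested, and that list was chosen after the values were seen.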
